A study of Mus musculus with 3 samples.

Results

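The nuclear-encoded subunits of the mitochondrial respiratory chain and of ATP synthase were followed through 3 populations derived from JC, a mammary carcinoma line of the mouse. They were taken from a deposited table of TPM, a transcript level corrected for gene length and library size, as every row whose gene symbol named a subunit of complex I (Nduf followed by a, b, c, s or v and a digit), complex II (Sdha to Sdhd), complex III (Uqcr and Cyc1), complex IV (Cox4 to Cox8) or ATP synthase (Atp5). The inhibitor Atp5if1 and names ending in -ps or Rik were left out. This gave 92 of the 55471 rows of the table. Of these, 82 averaged 1 TPM or more across the libraries and are called measured here, against 14527 measured rows in the whole table, and 6 had no read in any library.

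JC-WT was the JC line as cultured. JC-P was isolated from an orthotopic mammary fat pad tumor 14 days after transplantation, per the submitters' design text, which is followed here. The sample labels instead give the treatment of JC-P as metastasis. JC-M3 came from JC-P-derived cells that had gone through 3 rounds of intravenous injection and recovery from lung metastases, each taken 28 days after injection. All 3 were labelled wild type in genotype and epithelial-like, and RNA was extracted from cultured cells. Each population was sequenced as 1 library and is 1 isolate or line, so no difference could be tested against the spread between replicates and no p-value was computed. Selection, passage in the animal, time in culture and the handling of a library cannot be told apart.

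The respiratory chain passes electrons from NADH (complex I) and succinate (complex II) through ubiquinone to complex III, then by cytochrome c to complex IV, which reduces oxygen. Complexes I, III and IV pump protons across the inner mitochondrial membrane, and ATP synthase uses the return flow to make ATP. A core of the subunits of complexes I, III, IV and ATP synthase is encoded in mitochondrial DNA and is not part of this set, whereas complex II is wholly nuclear. Several complex IV subunits exist as isoforms from separate genes that are known for expression in different tissues, such as heart and skeletal muscle, lung or testis.

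Reads assigned to genes totalled 18093426 for JC-WT, 22132593 for JC-P and 23386413 for JC-M3 when recovered from TPM and gene length. Of 10 epithelial marker genes 2 were measured: Krt8 stood at 1503, 1873 and 681 TPM (values in threes follow the order JC-WT, JC-P, JC-M3 throughout) and Krt18 at 48.6, 48.5 and 18.4 TPM, while Epcam had no read in any library. Of the fibroblast markers 5 of 6 were measured, of the adipocyte markers 0 of 8 and of the leukocyte markers 0 of 8. Among the fibroblast markers Pdpn stood at 811, 673 and 804 TPM and Pdgfra at 34.1, 47.6 and 20.1 TPM. Dcn stood at 1.24, 14.0 and 22.5 TPM, Col3a1 at 3.99, 46.0 and 8.76 TPM and Col1a2 at 0.25, 0.66 and 4.40 TPM, while Lum had no read. Of the endothelial markers 1 of 6 was measured, Cdh5 at 0.09, 17.7 and 0.10 TPM, while Kdr and Cldn5 had no read and Emcn, Tek and Pecam1 had at most 10 reads in a library. Of the lung epithelial markers 1 of 5 was measured, Ager at 1.22, 2.91 and 2.52 TPM. Foxj1 had 5, 6 and 6 reads, and Sftpc, Sftpb and Scgb1a1 had none. The part of other cell types in the values below was not tested beyond these levels, and fewer cells of a type cannot be told apart from less RNA per cell.

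The subunit genes were among the abundant transcripts of all 3 populations. Their median levels were 115, 108 and 101 TPM, against 19.2, 19.5 and 19.2 TPM over all measured features. The median subunit ranked at percentile 88.8, 88.5 and 87.4 of the measured features. Together the subunits held 15376, 14607 and 14138 TPM, that is 1.54%, 1.46% and 1.41% of all transcripts. Of this sum ATP synthase held 4605, 4470 and 4444 TPM and complex IV 3391, 3251 and 3012 TPM. The matrix arm of complex I held 1761, 1628 and 1521 TPM and its membrane arm 2387, 2371 and 2201 TPM. Complex II, with 4 genes, held 955, 824 and 684 TPM. Complex III held 2277, 2064 and 2275 TPM, with the lowest sum in JC-P. The single gene Uqcr11 held 253, 123 and 442 TPM of it, while 6 of the 9 genes were lower in JC-M3 than in JC-P.

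**Figure D1:**
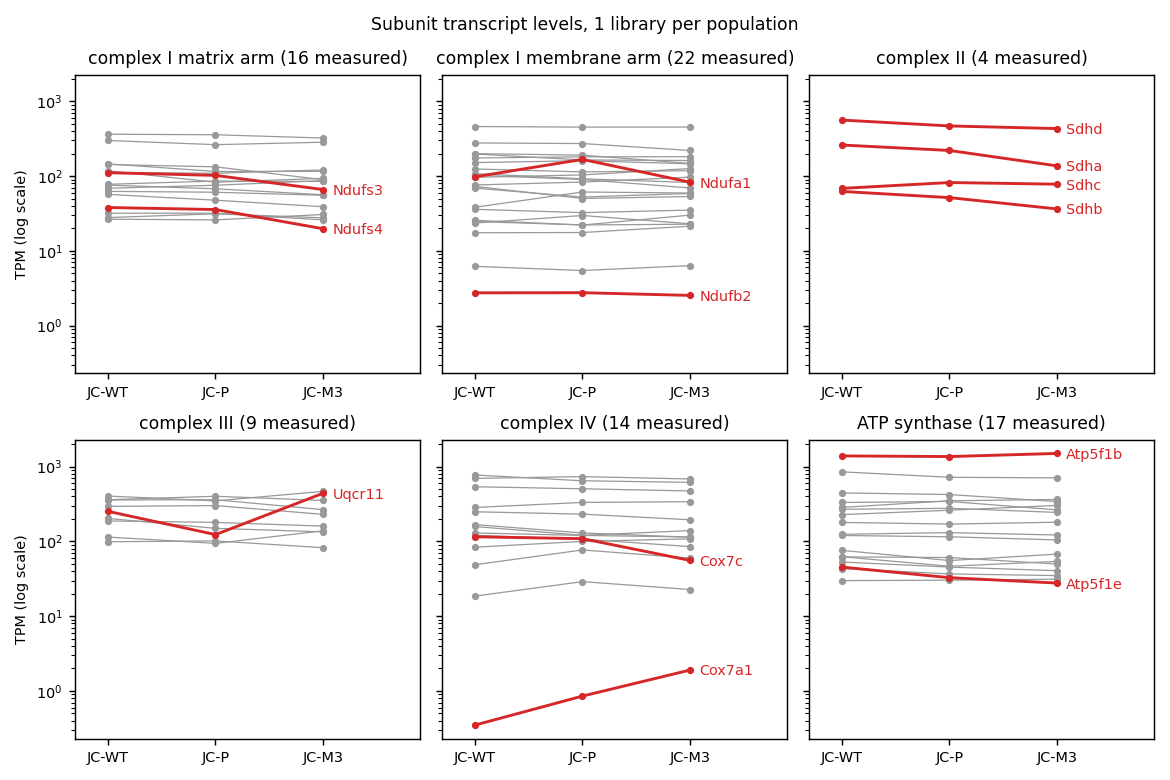
Levels of the 82 measured subunit transcripts by population, in TPM on a log axis, 1 panel per complex and 1 line per gene, with selected genes in red. Most lines are nearly level, while Uqcr11 dips in JC-P to 123 TPM and stands at 442 TPM in JC-M3, and Cox7c, Ndufs4, Ndufs3, Sdha and Sdhb are lowest in JC-M3.

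Differences between populations were small for most subunits and leaned downward with each step. They are given as log2 ratios of TPM + 0.5, the named population divided by the one it is set against, so that 1 unit is a 2-fold difference, with a 95% interval in brackets that comes from the read counts and covers counting error only. For JC-P versus JC-WT the median of the 82 subunits was -0.07, against 0.01 over all measured features, and 53 of 82 (64.6%) were below 0, against 49.0% of all features. At 2-fold, 0 subunits were higher (4.76% of all features) and 1 was lower (2.33% of all features), and the counting interval lay above 0 for 10 (27.3% of all features) and below 0 for 32 (28.2%). For JC-M3 versus JC-P the median was -0.10, against -0.01 over all features, with 50 of 82 (61.0%) below 0 against 50.7%. There, 1 subunit was at least 2-fold higher (3.82% of all features) and 1 at least 2-fold lower (5.38%), with intervals above 0 for 20 (29.6%) and below 0 for 35 (30.1%).

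For JC-M3 versus JC-WT, which is the sum of the other 2 steps and shares both of its libraries with them, the median was -0.18 against 0.00. Here 57 of 82 (69.5%) were below 0 against 49.7% of all features, 1 was at least 2-fold higher (6.14% of all features) and 1 at least 2-fold lower (5.27%). The higher one was Cox7a1, from 1, 3 and 7 reads, with a counting interval that included 0. It reached a mean of 1 TPM only through its level in JC-M3, so this call rests partly on the filter. The counting interval lay below 0 for 45 of 82 (30.6% of all features) and above 0 for 16 (29.7%). Few subunits thus passed 2-fold in any comparison, while a larger share of them than of all features had a ratio below 0 in each comparison. At the lower bar of 1.5-fold, JC-P versus JC-WT had 5 subunits higher (12.0% of all features) and 1 lower (6.9%). JC-M3 versus JC-P had 2 higher (10.0%) and 5 lower (13.3%), and JC-M3 versus JC-WT had 3 higher (14.0%) and 8 lower (12.5%), shares below those of all features in each case. All features were not matched to the subunits in level, with library medians of 19.2 to 19.5 TPM against 101 to 115 TPM. Counting error is wider at low levels, so neither the fold shares nor the interval shares compare like with like.

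**Figure D2:**
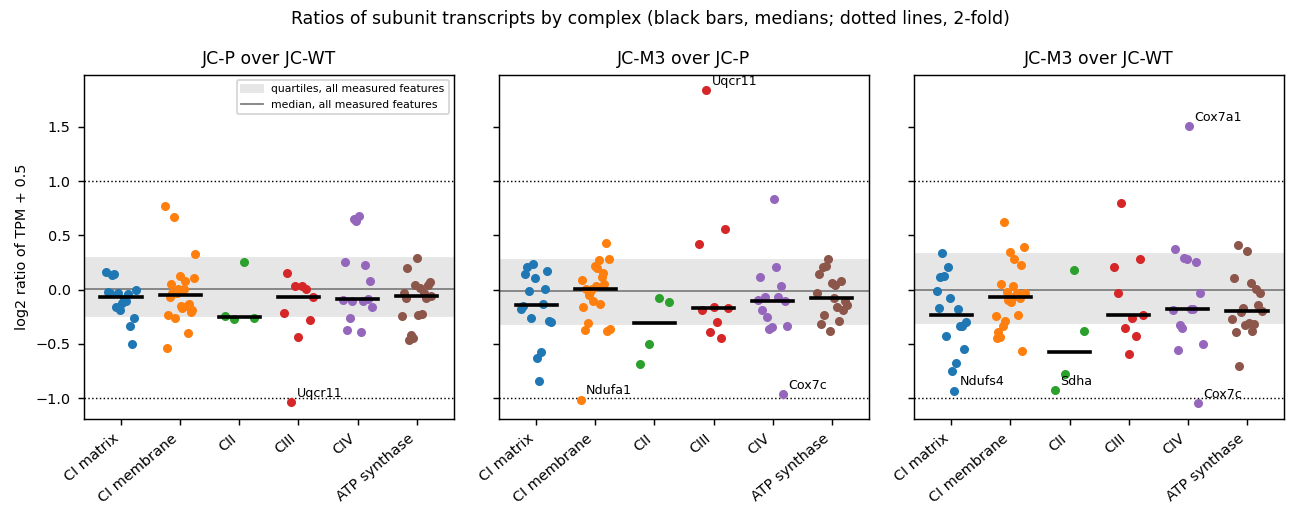
Log2 ratios of TPM + 0.5 of the measured subunits by complex for the 3 comparisons, with black bars at the median of each complex, the gray band at the quartiles of all 14527 measured features and dotted lines at 2-fold. Complex II has the lowest median in each panel (-0.25, -0.31 and -0.57), and Uqcr11 lies at -1.03, 1.84 and 0.80.

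In complex I, the matrix arm, which carries the flavin and iron-sulfur clusters that take electrons from NADH, had lower values in JC-M3. The medians of its 16 measured subunits in the 3 comparisons (JC-P versus JC-WT, JC-M3 versus JC-P, JC-M3 versus JC-WT, in this order below) were -0.06, -0.14 and -0.23, with 12 of 16 below 0 in the last. The lowest was Ndufs4, an accessory subunit of this arm whose loss causes mitochondrial disease, at 38.0, 35.7 and 19.8 TPM. JC-WT and JC-P were close and JC-M3 alone was low, with a JC-M3 versus JC-WT ratio of -0.93 (-1.14 to -0.75). The core subunit Ndufs3 stood at 111, 102 and 66.1 TPM, with -0.12 (-0.23 to -0.01) at the JC-P step and -0.63 (-0.75 to -0.51) at the JC-M3 step. Ndufs6, a zinc-binding accessory subunit, stood at 143, 133 and 89.6 TPM, again with JC-M3 alone low, and -0.67 (-0.84 to -0.51) for JC-M3 versus JC-WT.

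Other core subunits of the matrix arm did not share that pattern. Ndufv1, which binds NADH and the flavin, stood at 118, 83.0 and 93.5 TPM and so was lowest in JC-P, with -0.50 (-0.61 to -0.40) for JC-P versus JC-WT. Ndufs8, a carrier of iron-sulfur clusters, stood at 146, 116 and 116 TPM, with the JC-P step at -0.34 (-0.47 to -0.21) and the JC-M3 step at 0.00 (-0.12 to 0.13). Ndufv2, which carries an iron-sulfur cluster, stood at 57.1, 47.6 and 39.0 TPM, stepping down at both. Ndufs1, the largest subunit of the arm, stood at 26.5, 26.0 and 30.7 TPM, highest in JC-M3 at 0.21 (0.10 to 0.32) versus JC-WT. Ndufs7, which carries an iron-sulfur cluster, stood at 62.6, 60.9 and 55.4 TPM, at -0.17 (-0.34 to -0.01) for JC-M3 versus JC-WT. The highest ratio of the arm in that comparison was the 0.34 (0.20 to 0.48) of the accessory subunit Ndufa6, at 68.9, 75.5 and 87.2 TPM. Transcripts of 1 protein assembly therefore spread over 1 log2 unit and more in the same library pair.

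The rows grouped under the membrane arm, the proton-pumping part whose core is encoded in mitochondrial DNA, sat closer to all genes. They are all complex I rows not listed for the matrix arm, and include Ndufb4c and Ndufs6b, processed pseudogenes of Ndufb4 and of the matrix arm gene Ndufs6. The 22 measured rows had medians of -0.05, 0.00 and -0.07 in the 3 comparisons. Ndufa1, a small subunit encoded on the X chromosome and required for assembly of the complex, was the exception at both steps. It stood at 97.8, 167 and 82.8 TPM, with JC-P alone high. The ratio was 0.77 (0.54 to 1.01) for JC-P versus JC-WT and -1.01 (-1.25 to -0.79) for JC-M3 versus JC-P, and JC-M3 versus JC-WT was -0.24 (-0.51 to 0.03). Its 2-fold call for JC-M3 versus JC-P was marginal, and Ndufa1 stood at -0.99 with TMM or median-of-ratios scaling. Ndufb1 stood at 38.3, 61.4 and 59.4 TPM, low in JC-WT alone, at 0.67 (0.45 to 0.91) for JC-P versus JC-WT, and its row is annotated as a non-coding transcript in the gene models used here.

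Ndufa10, an accessory subunit of this arm, stood at 72.9, 50.2 and 53.4 TPM, high in JC-WT alone, with -0.53 (-0.65 to -0.42) at the JC-P step. Ndufc2 stood at 103, 90.2 and 69.4 TPM, the lowest JC-M3 versus JC-WT ratio of the arm at -0.56 (-0.77 to -0.36). Ndufc1 (25.7, 22.2 and 30.1 TPM) had one of the higher JC-M3 versus JC-P ratios, 0.43 (0.19 to 0.70), and Ndufs5 (96.4, 104 and 126 TPM) reached 0.39 (0.22 to 0.56) versus JC-WT. The most abundant subunit of the arm, Ndufb11, was nearly level at 461, 453 and 454 TPM. The paralog rows Ndufb11b and Ndufa11b had no read in any library.

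Complex II, succinate dehydrogenase, also a tricarboxylic acid cycle enzyme, had the lowest median of the complexes in all 3 comparisons, at -0.25, -0.31 and -0.57, from 4 genes. With the genes of chromosome 13 left out, which removes Sdha, its JC-M3 versus JC-P median was -0.12 and no longer the lowest, since complex III stood at -0.16. With chromosome medians subtracted it was -0.15. Sdha, the flavoprotein that oxidizes succinate, stood at 261, 221 and 137 TPM, from 5777 reads in JC-WT, and stepped down at both, to -0.93 (-0.99 to -0.87) for JC-M3 versus JC-WT. Sdhb, the iron-sulfur subunit that partners it, stood at 62.5, 51.6 and 36.4 TPM, in the same order, at -0.77 (-0.94 to -0.62). The membrane anchors Sdhc and Sdhd differed from each other. Sdhd stood at 563, 469 and 433 TPM, at -0.38 (-0.44 to -0.31) for JC-M3 versus JC-WT, whereas Sdhc stood at 68.6, 82.1 and 78.0 TPM and was lowest in JC-WT, at 0.19 (0.08 to 0.29). The 2 catalytic subunits thus had the lower ratios and 1 anchor lay above 0.

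Complex III, the cytochrome bc1 complex, held the gene with the widest swing of the whole set. Uqcr11, a small accessory subunit that spans the inner membrane, stood at 253, 123 and 442 TPM, from 872, 520 and 1945 reads. JC-P was the low library and JC-M3 the high one. Its ratios in the 3 comparisons were -1.03 (-1.20 to -0.88), 1.84 (1.70 to 1.98) and 0.80 (0.69 to 0.92). Uqcr11 lies on chromosome 10, and subtracting the median of all measured features of that chromosome left -1.22 and 1.63 at the 2 steps.

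2 further subunits dipped in JC-P and were higher in JC-M3, by less. Uqcrh, the hinge protein that helps cytochrome c1 bind cytochrome c, stood at 114, 94.2 and 139 TPM, at 0.56 (0.43 to 0.69) for JC-M3 versus JC-P. Cyc1, cytochrome c1 itself, stood at 405, 349 and 468 TPM, at 0.42 (0.37 to 0.47). The other catalytic subunit in the nuclear set, the Rieske iron-sulfur protein Uqcrfs1, went the other way, with 359, 361 and 266 TPM, low in JC-M3 alone, at -0.44 (-0.52 to -0.37). The core proteins Uqcrc1 (203, 150 and 134 TPM) and Uqcrc2 (99.0, 102 and 82.4 TPM) had JC-M3 versus JC-WT ratios of -0.60 (-0.66 to -0.54) and -0.26 (-0.37 to -0.16). Uqcrb (294, 302 and 230 TPM), which contacts the ubiquinone site, was also low in JC-M3 alone. Of the 9 genes 6 were below 0 for JC-M3 versus JC-WT, with a median of -0.23. This median turned to 0.04 with chromosome medians subtracted and was -0.03 without the genes of chromosome 13, and that of JC-M3 versus JC-P, -0.17, turned to 0.03 with chromosome medians subtracted.

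In complex IV, cytochrome c oxidase, Cox7c was the lowest and the medians of 14 measured rows were -0.09, -0.10 and -0.18. Cox7c, a small membrane subunit, stood at 115, 109 and 55.7 TPM, with JC-M3 alone low. It was the single subunit at least 2-fold lower in JC-M3 than in JC-WT, at -1.05 (-1.23 to -0.88), or -0.65 with the median of chromosome 13 subtracted, and was just short of 2-fold for JC-M3 versus JC-P, at -0.96 (-1.14 to -0.80). Cox5a and Cox5b, peripheral subunits that sit on the matrix side, moved apart. Cox5a stood at 83.6, 100 and 108 TPM, at 0.37 (0.26 to 0.49) for JC-M3 versus JC-WT, and Cox5b at 168, 130 and 114 TPM, at -0.56 (-0.67 to -0.45). Cox6c, a small membrane subunit, stood at 48.7, 76.9 and 59.8 TPM, high in JC-P, at 0.65 (0.54 to 0.77) for JC-P versus JC-WT. The 3 most abundant rows, Cox6a1 (775, 648 and 617 TPM), Cox8a (698, 737 and 685 TPM) and Cox4i1 (539, 506 and 473 TPM), lay between -0.33 and -0.03 for JC-M3 versus JC-WT.

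The 17 measured genes of ATP synthase ran from -0.70 to 0.41 for JC-M3 versus JC-WT, with a median of -0.20 and 12 of 17 below 0. In the catalytic F1 head, the beta subunit Atp5f1b was the most abundant subunit transcript of the set, at 1394, 1366 and 1505 TPM, with 0.11 (0.09 to 0.13) for JC-M3 versus JC-WT, which turned to -0.29 once the median of chromosome 10 was subtracted. Its partner, the alpha subunit Atp5f1a, stood at 854, 722 and 708 TPM, at -0.27 (-0.30 to -0.24), although both proteins are built into the head in equal copy number. Of the central stalk, the gamma subunit Atp5f1c stood at 446, 424 and 341 TPM, low in JC-M3, at -0.39 (-0.45 to -0.33). The delta subunit Atp5f1d stood at 228, 262 and 303 TPM, highest in JC-M3, at 0.41 (0.34 to 0.48), or 0.01 with the same subtraction, and the epsilon subunit Atp5f1e at 45.4, 32.8 and 27.7 TPM, at -0.70 (-0.92 to -0.50). The 3 stalk subunits therefore spanned the full range of the complex. A second row named Atp5po, which overlaps the first in position, had no read in any library.

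The same complex IV isoforms led in all 3 populations: in every set that contrasts widely expressed with tissue-restricted forms, the widely expressed form or forms held more than 99% of the summed TPM. Cox4i1 held 99.96% in JC-WT (99.76 to 99.999%, exact binomial interval, counting error only) and 100% in the other 2 libraries. Its lung and hypoxia-associated counterpart Cox4i2 had 1 read in JC-WT and 0 in JC-P and JC-M3, where 0 reads allow a share of up to 0.114% and 0.117%. Cox6a1 held 99.82%, 99.86% and 99.97%, and the heart and muscle form Cox6a2 had 5, 4 and 1 reads. The muscle form Cox8b and the testis forms Cox8c and Cox6b2 had no read in any library, and for Cox8b this allows a share of up to 0.222% in JC-WT. The testis form Cox7b2 and the Ndufa4 paralog Ndufa4l2, known as a hypoxia-induced gene, each had 1 read, both in JC-P. Ndufa4 itself, which was isolated as a complex IV subunit, stood at 120, 108 and 85.3 TPM.

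Cox7a1, the heart and muscle form of Cox7a, was the 1 tissue form that passed the filter, at 0.35, 0.85 and 1.91 TPM from 1, 3 and 7 reads. Its mean reached 1 TPM only through JC-M3, the library where it was highest. Its JC-M3 versus JC-WT ratio of 1.505, the highest of the set, had a counting interval from -0.51 to 7.95, so a difference was not detectable at this depth. Striated muscle marker genes, of which 3 of 11 were measured, summed to 25.2, 37.0 and 18.7 TPM. The measured ones were Tnni2 (14.8, 20.4 and 11.8 TPM), Tnnt3 (7.06, 13.4 and 3.96 TPM) and Myh1 (2.26, 2.66 and 2.06 TPM). Ckm, not measured, had 1 read, in JC-P. Within the Cox7a set, Cox7a2 held 54.9%, 49.9% and 54.5% of the TPM and Cox7a2l, which is known for supercomplex assembly, 45.0%, 49.8% and 44.7%. The intervals of Cox7a2 were 52.6 to 57.2% in JC-WT, 47.6 to 52.2% in JC-P and 52.3 to 56.7% in JC-M3, so JC-P was the lower library.

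The 3 genes for the c subunit of ATP synthase encode the same mature protein behind different import peptides, so their shares describe gene use and not protein form. Atp5mc3 held 70.6% of their TPM in JC-WT (69.5 to 71.6%), 77.1% in JC-P (76.1 to 78.0%) and 68.4% in JC-M3 (67.3 to 69.5%). Atp5mc1 held 13.3%, 10.5% and 14.0%, and Atp5mc2 16.2%, 12.5% and 17.5%. The order of these last 2 rests on the merged exon length: of the reads Atp5mc1 held 26.5%, 21.4% and 27.8% and Atp5mc2 11.0%, 8.69% and 11.9%, and on principal transcript lengths Atp5mc1 stood at 515 and Atp5mc2 at 289 in JC-WT. A further 1658, 1574 and 1906 reads lay in Gm10039, a copy of Atp5mc1, beside 1647, 1503 and 1823 in the gene. JC-P stood apart from the other 2 libraries in all 3 shares. The levels behind them were 332, 343 and 264 TPM for Atp5mc3, 62.5, 46.6 and 54.1 TPM for Atp5mc1 and 76.0, 55.5 and 67.7 TPM for Atp5mc2. The summed level of Atp5mc1 and Atp5mc2 was thus lowest in JC-P, and Atp5mc3 was lowest in JC-M3.

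**Figure D3:**
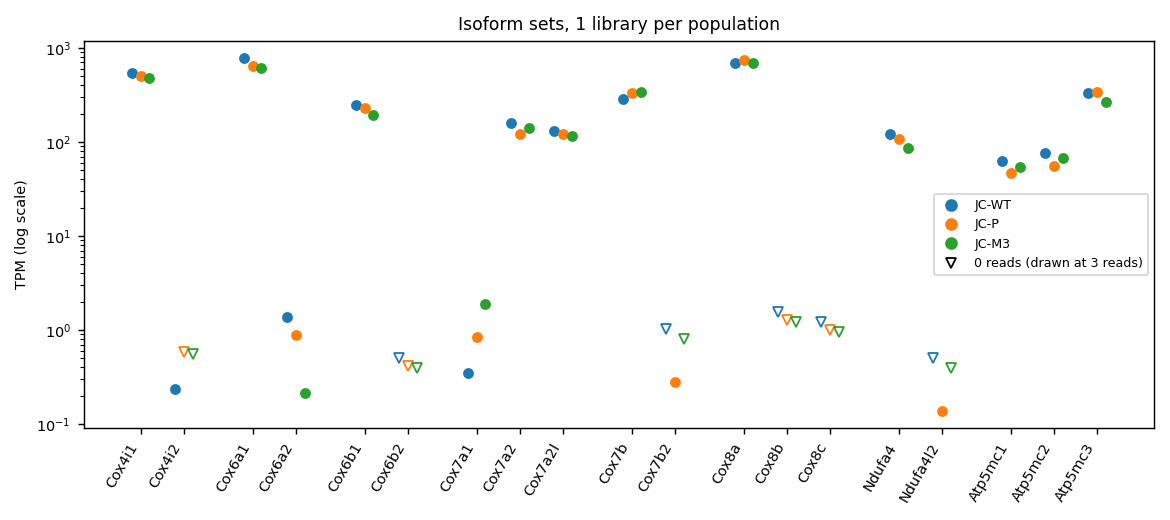
Levels of the genes of 8 isoform sets in TPM on a log axis, with 1 filled point per library and open triangles at the level of 3 reads where a library had 0 reads. The widely expressed form of each complex IV pair lies above 85 TPM and the tissue forms lie at or below 1.91 TPM.

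Genes of the same chromosome tended to differ together in JC-M3, and the 3 lowest subunits for JC-M3 versus JC-WT (Cox7c, Ndufs4 and Sdha) all lie on chromosome 13. It carries 6 of the 82 measured subunits, namely Sdha, Ndufs4, Ndufs6, Cox7c, Uqcrb and Uqcrfs1, from 4 different complexes. All 6 were lower in JC-M3 than in JC-P and in JC-WT, with medians of -0.63 and -0.80. The medians of all 580 measured features of chromosome 13 in the 3 comparisons were 0.08, -0.48 and -0.40, with 41.4%, 83.3% and 75.3% of them below 0. Of the 6 subunits, 4 lay below the chromosome median for JC-M3 versus JC-P and 5 for JC-M3 versus JC-WT.

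Along chromosome 13 in bins of 20 Mb, the median of all features for JC-M3 versus JC-P was between -0.29 and -0.44 up to 80 Mb. It was -0.79 from 80 to 100 Mb, where Cox7c lies, and -0.70 from 100 to 120 Mb, where Ndufs4 lies. After the chromosome median was subtracted, JC-M3 versus JC-P stood at -0.49 for Cox7c, -0.36 for Ndufs4, -0.21 for Sdha, -0.09 for Ndufs6, 0.03 for Uqcrfs1 and 0.08 for Uqcrb. Sdhb on chromosome 4, where the median was 0.11, stood at -0.60 after the same step. With the 6 genes left out the set's medians in the 3 comparisons were -0.07, -0.07 and -0.15.

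Other chromosomes were shifted as well. Chromosome 2 (median -0.22 for JC-M3 versus JC-P) carries Ndufs3, Ndufa8, Atp5f1c, Atp5f1e and Atp5mc3. All 5 were below 0, as were 69.3% of all measured features of the chromosome. Chromosome 3 (0.23) carries Atp5pb, Ndufb5 and Ndufc1, and all 3 were above 0, with 28.4% of its features below 0. On chromosome 15 (0.21) 1 of 6 rows was below 0, against 30.2% of its features. Subunits did not follow the chromosome median everywhere: all 6 on chromosome 17 (0.04) were below 0 in this comparison, against 45.4% of its features. On chromosome 7 (0.03) 4 of 6 rows, the pseudogene Ndufs6b among them, were below 0, against 46.5%. Chromosome 10, which carries Uqcr11, Atp5f1b, Atp5f1d, Ndufa12 and Ndufs7, had a median of 0.40 for JC-M3 versus JC-WT, about as far from 0 as chromosome 13, but 3 of its 5 subunits lay below this median. Across the 82 genes, the Pearson correlation between a subunit's ratio and the median of its chromosome was 0.04, 0.59 and 0.55 in the 3 comparisons, and 0.04, 0.46 and 0.41 for the 76 genes off chromosome 13. These are descriptions across genes, which share their libraries and chromosomes and are not independent. The part of a regional shift in the ratio of any single gene was not tested.

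**Figure D4:**
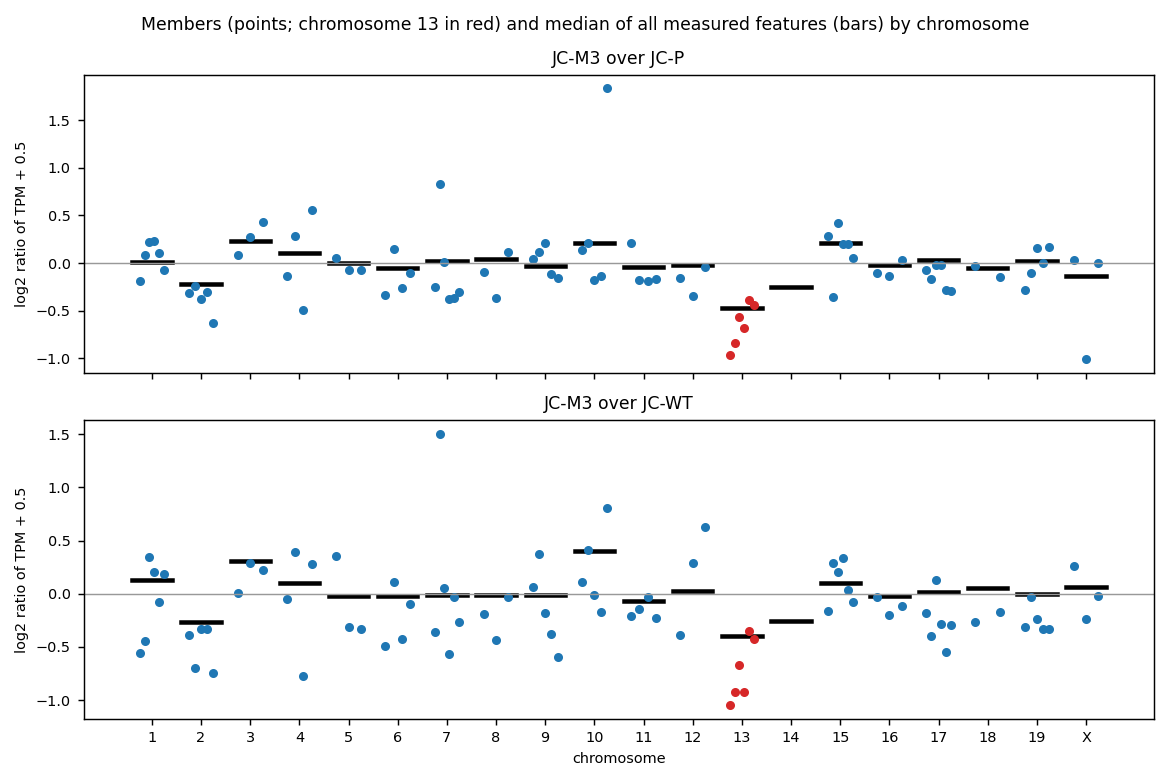
Log2 ratios of TPM + 0.5 of the measured subunits by chromosome (points, chromosome 13 in red) with the median of all measured features of that chromosome (bars), for JC-M3 versus JC-P (top) and JC-M3 versus JC-WT (bottom). The 6 points on chromosome 13 lie between -0.39 and -0.96 in the top panel, around a bar at -0.48.

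Promoter sequences are shown for Uqcr11, the gene with the widest swing, for Uqcrh, which also dipped in JC-P, and for some of the low subunits. They set the letters near the start beside the ratios. Other low subunits with a matched promoter, such as Atp5f1e and Ndufs6, are not shown, so the stretches are examples only. Nuclear respiratory chain genes are known targets of NRF1, of the ETS-family factor GABP and of YY1. RefSeq promoters (GRCm38.p6, 250 bases before to 50 after the start) were matched for 66 of the 82 genes. Each stretch below runs from 140 bases before the start to its first 10 bases, 5′ to 3′ on the strand of the gene, with matches to the NRF1 letters GCGCATGC and the ETS letters CCGGAAG, on either strand, in capitals. Uqcr11 (minus strand, chr10:80406812-80406961) held both, Uqcrh (minus strand, chr4:116075061-116075210) held the ETS letters, Ndufs3 (minus strand, chr2:90904712-90904861) held them in 2 places and Sdhb (plus strand, chr4:140961131-140961280) held the NRF1 letters. Sdhb also held the ETS letters, at position 6 after the start, but the end of the stretch cuts this match off, so it is not in capitals.
Uqcr11: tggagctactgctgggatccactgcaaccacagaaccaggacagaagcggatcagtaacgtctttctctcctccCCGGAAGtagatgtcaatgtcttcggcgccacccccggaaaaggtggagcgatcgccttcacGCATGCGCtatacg
Uqcrh: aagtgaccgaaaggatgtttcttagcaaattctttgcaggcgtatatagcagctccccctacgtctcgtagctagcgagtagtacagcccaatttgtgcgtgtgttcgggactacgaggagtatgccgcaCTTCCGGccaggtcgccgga
Ndufs3: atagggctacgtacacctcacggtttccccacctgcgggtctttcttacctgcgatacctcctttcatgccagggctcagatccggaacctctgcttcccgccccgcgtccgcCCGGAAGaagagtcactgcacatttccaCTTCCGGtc
Sdhb: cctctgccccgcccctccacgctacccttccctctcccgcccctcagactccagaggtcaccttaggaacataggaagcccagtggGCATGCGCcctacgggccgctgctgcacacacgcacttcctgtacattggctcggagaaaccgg

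The matched promoters on chromosome 13 with the 3 lowest JC-M3 ratios, all on the minus strand, held neither motif in this stretch: Cox7c (chr13:86046786-86046935), Ndufs4 (chr13:114388085-114388234) and Sdha (chr13:74350231-74350380). Ndufs6 and Uqcrfs1, on the same chromosome with ratios nearer its median for JC-M3 versus JC-P, held neither as well. Lacking both was common: over the full 300 bases 10 of 66 subunits held the NRF1 letters and 17 the ETS letters.
Cox7c: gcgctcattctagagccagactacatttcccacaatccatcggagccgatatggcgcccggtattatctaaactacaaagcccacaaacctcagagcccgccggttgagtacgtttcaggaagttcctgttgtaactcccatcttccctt
Ndufs4: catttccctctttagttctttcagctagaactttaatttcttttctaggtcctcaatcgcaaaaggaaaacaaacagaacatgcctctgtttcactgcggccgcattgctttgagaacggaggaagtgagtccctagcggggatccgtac
Sdha: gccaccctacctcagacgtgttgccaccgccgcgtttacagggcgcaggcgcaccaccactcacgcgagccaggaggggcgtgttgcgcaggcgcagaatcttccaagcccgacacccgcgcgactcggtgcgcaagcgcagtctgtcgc

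Among the subunits as a whole the NRF1 letters occurred in 10 of 66 genes (15.2%), against 6.31% of 9094 measured coding genes and 3.05% of all 27025 genes. A gene was counted if any of its listed promoters held the letters. The ETS letters occurred in 17 (25.8%), against 21.4% and 9.93%. The YY1 letters AAGATGGCG occurred in 7 (10.6%), against 3.79% and 1.64%. In 6 of these 7, Ndufs4 and Ndufs6 among them, they lay downstream of the start and beyond the stretch shown. The Sp1 letters GGGCGG occurred in 26 (39.4%), against 70.3% and 38.2%, and TATAAA in 6 (9.09%), against 8.45% and 15.7%. All counts take both strands and the full 300 bases. Of the complex III genes that dipped in JC-P and were highest in JC-M3, Uqcr11 and Uqcrh both held the ETS letters and Uqcr11 alone of the pair held the NRF1 letters. Subunits without this pattern, such as Ndufs3 and Sdhd, held the ETS letters too, and a link between letters and ratios was not tested. Cyc1 had no matched promoter. A match of letters is no evidence of binding, and their absence here says nothing of the factor.

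Levels within a complex depended on the length behind TPM, which here was that of all annotated exons of a gene merged, longer than the main transcript for most genes. Ndufb2 stood at 2.75 TPM in JC-WT on a merged length of 5628 bases and at 34.0 on the length of its principal transcript, 455 bases. In the membrane arm of complex I the ratio of the highest to the lowest gene in JC-WT was 168 on merged lengths and 13.6 on principal lengths, and in ATP synthase 46.6 and 20.5. On principal lengths the order within ATP synthase was led by Atp5f1b at 3082, then Atp5f1a at 1083 and Atp5mc3 at 1014, with Atp5mf lowest at 150. Complex III was the narrowest on either scale in JC-WT, with a 4.09-fold range in TPM. Ratios of TPM between libraries do not depend on this choice.

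**Figure D5:**
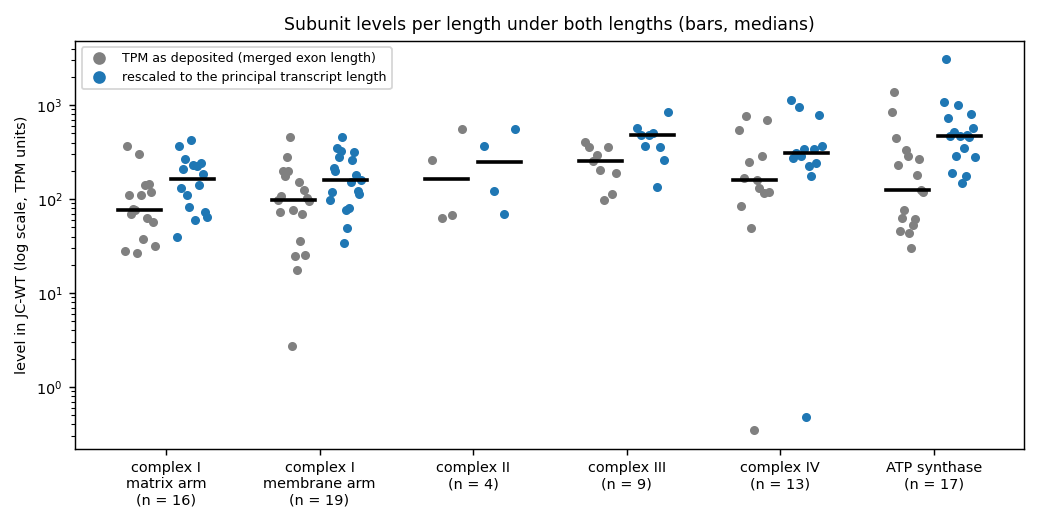
Levels in JC-WT of the 78 measured subunits with a principal transcript, on a log axis by complex, as TPM on the merged exon length (gray) and rescaled to the principal transcript (blue), with bars at the median of each complex. The lowest gene of the complex I membrane arm moves from 2.75 to 34.0, and Cox7a1 stays lowest in complex IV.

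Many of these genes have processed copies elsewhere in the genome, and reads were shared with them to differing extents. A pseudogene row with near-identical sequence was found for 27 subunits, and for 9 such rows held at least 10% of the combined reads in JC-WT. The share was 69.6% for Ndufa12 (235 reads in the gene and 538 in Ndufa12-ps), 50.2% for Atp5mc1, whose copy is Gm10039, and 41.9% for Atp5mg. The levels of these 3 genes are therefore uncertain. By another measure, 10 measured rows had over 20% of their 50-base windows in transcripts of other genes. Among them were Atp5po (41.6%), Atp5mc2 (38.3%), Uqcrb (25.5%), Cox7c (22.1%) and Ndufs5 (21.7%), and their levels are uncertain to that extent.

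For Cox7c the pseudogene Gm12338 on chromosome 11 held 333, 430 and 214 reads against 701, 809 and 432 in the gene. Its JC-M3 versus JC-P ratio was -1.07 beside the -0.96 of Cox7c, although it lies on another chromosome. For Ndufs3, the copy Gm12251, also on chromosome 11, stood at -0.79 beside -0.63. For Uqcr11 the copy Gm16418 held 125, 164 and 216 reads and did not show the dip in JC-P, at 0.10 for JC-P versus JC-WT beside -1.03. Whether reads of these rows came from the gene or from the copy was not tested. The copies Ndufb4c, Ndufs6b and Cox6c2, which the naming rule takes in, are annotated as processed pseudogenes, and their intervals included 0 in all 3 comparisons.

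The other genes of the pathway were also close to level. Of 62 measured genes for cytochrome c, assembly factors, regulators and a hypoxia-linked list, 0 passed 2-fold in either direction for JC-P versus JC-WT and for JC-M3 versus JC-P, and 1 was lower for JC-M3 versus JC-WT. The shares of all features past 2-fold were 4.76% higher and 2.33% lower, 3.82% and 5.38%, and 6.14% and 5.27% in the 3 comparisons. The medians of the 62 genes were -0.12, 0.03 and -0.09. The 1 gene was Ppargc1b, a coactivator of mitochondrial gene expression, at 6.68, 4.69 and 2.92 TPM and -1.07. Its relative Ppargc1a did not exceed 0.07 TPM.

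Among the 13 measured regulators, Tfam, which packages and transcribes mitochondrial DNA, stood at 27.0, 31.6 and 43.6 TPM, highest in JC-M3. Esrra, a nuclear receptor that acts with those coactivators, stood at 24.0, 25.6 and 16.1 TPM, lowest there. Of 15 measured assembly factors of complex I, 11 were below 0 for JC-M3 versus JC-WT (49.7% of all features were), with a median of -0.13, and the lowest were Ndufaf5 (20.7, 16.3 and 12.2 TPM) and Ndufaf2 (21.7, 19.3 and 12.8 TPM), the latter on chromosome 13. Of 4 for complex II, all 4 were below 0, with a median of -0.25. Of 6 for complex III, 5 were below 0, led by Uqcc2 at 68.8, 49.1 and 40.1 TPM. Of 19 for complex IV, 12 were below 0, and Sco2, a copper chaperone, dipped in JC-P, at 22.0, 11.3 and 18.5 TPM from 148, 93 and 159 reads. Its JC-P versus JC-WT ratio was -0.93 (-1.35 to -0.58). Of the 50-base windows of Sco2, 88.2% also occur in transcripts of other genes, and of those of Ndufaf2 64.1%, so both levels are uncertain. Cycs, the cytochrome c that links complexes III and IV, stood at 101, 95.4 and 114 TPM.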

How the data were processed

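RNA of the 3 cultured cell populations was sequenced after poly(A) selection with a stranded kit, per the labels' protocols, as 1 library per population. Per the submitters' processing notes, FastQC 0.11.9, STAR 2.7.9a and featureCounts were used with mm10/GRCm38. For the strand setting and annotation release, the entry is: not given in the sources used here. The authors deposited TPM per gene.

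Multiplied by GENCODE M21 merged exon length, 98.4 to 98.5% of values were whole reads to within 0.01. These reads gave exact Clopper-Pearson intervals (95%) of each ratio before the 0.5 was added, which cover counting error only. Ratios are log2 of TPM + 0.5 on rows with a mean of at least 1 TPM. A call was 2-fold. Near-identical copies were found from shared 50-base windows. The calculation was tested on simulated data. Python 3.11.15, numpy 2.4.6, pandas 2.3.3 and scipy 1.17.1 were used.

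Named genes were the 6 highest and lowest ratios of each comparison, isoform sets, the extremes of each complex, the redox or catalytic core, members with 0 reads in a library, and, of other pathway genes, those past 2-fold and the extremes of each list. A few more were chosen after their values were seen, such as the levels of copies. Not every gene under this rule is reported by name here. Members and lists were chosen with earlier results of these data known. Alternatives were other scalings, pseudocounts, filters and subtractions.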

Additional observations from a re-analysis of the deposited data

How the results depend on the processing

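No paired analysis was possible because each population has 1 library, and for the same reason none could be left out. The counts of subunits past 2-fold are small and moved by 1. JC-M3 versus JC-P had 0 lower (1 as reported, Ndufa1 at -1.01, just past 2-fold) with TMM or median-of-ratios scaling, with a pseudocount of 2 and with chromosome or medians of genes of like length subtracted. JC-M3 versus JC-WT had 0 lower with chromosome medians subtracted, with the genes sharing over 20% of their windows left out and with chromosome 13 left out, and 2 lower without a filter. It had 0 higher with a pseudocount of 2 or a mean of at least 10 TPM. With a pseudocount of 0.1, JC-P versus JC-WT had 1 higher and JC-M3 versus JC-P 2 higher. At 1.5-fold the counts were 5 higher for JC-P versus JC-WT, 2 higher and 5 lower for JC-M3 versus JC-P, and 3 higher and 8 lower for JC-M3 versus JC-WT.

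Medians by complex moved mainly where position was taken into account. With chromosome medians subtracted, complex III turned to 0.0343 for JC-M3 versus JC-P and 0.0392 for JC-M3 versus JC-WT, and complex II stood at -0.147 and -0.445. With the 6 genes of chromosome 13 left out, an alternative chosen after seeing the data, complex II stood at -0.117 and -0.378, and complex III at -0.213 for JC-P versus JC-WT and -0.0299 for JC-M3 versus JC-WT. Complex IV stood at -0.0265 for JC-M3 versus JC-WT without a filter. The median of all subunits stayed below 0 in each comparison under every alternative run. Among 165 ratios of named genes, subtracting chromosome medians moved 56 and turned the sign of 11, of which 6 had a counting interval clear of 0: Cox7b (JC-P versus JC-WT), Atp5f1b, Atp5f1d, Ndufa6 and Uqcrfs1 (JC-M3 versus JC-P) and Atp5f1b (JC-M3 versus JC-WT). Subtracting medians of like length moved 9 and turned, among others, Atp5f1b (JC-P versus JC-WT), and TMM moved 1.

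As shares of reads and not of TPM, Cox7a2 held 43.8%, 39.0% and 43.6%, Cox7a2l 56.2%, 60.9% and 56.0%, Atp5mc1 26.5%, 21.4% and 27.8%, Atp5mc2 11.0%, 8.69% and 11.9%, and Atp5mc3 62.5%, 69.9% and 60.3% in the order used above. Depth limits Cox7a1 and the tissue forms, which had 0 to 7 reads.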
